A study of Brassica rapa subsp. pekinensis with 6 samples.

Results

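The predicted 24-nt small RNAs of germinated Chinese cabbage (Brassica rapa) seeds are the sequences of 24 nt whose name starts with PC, that is, sequences that did not match miRBase and whose surrounding genome sequence can fold into a hairpin. There were 225 such sequences among the 889 distinct sequences listed, each counted once with its rows added. They stood on 263 of the 1159 rows, 187 of them on 1 row and 38 on 2 rows. All seeds were of the doubled haploid line 'FT' and were germinated on wet filter paper before they were split. The 3 vernalized (Ver) libraries came from germinated seeds kept in the dark at 4 °C for 25 days, and the 3 non-vernalized (Nor) libraries from seeds kept in the dark at room temperature for about 48 h. Each replicate was a dish of pooled seeds. By the study's methods both groups were sampled at equal length, so cold and the longer time before sampling cannot be told apart. Small RNA alone was read in these libraries, so tissue markers and the mRNAs of the silencing enzymes were not analysed here.

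In plants, most 24-nt small RNAs are small interfering RNAs. RNA polymerase IV and the RNA-dependent RNA polymerase RDR2 make their double-stranded precursors, the Dicer DCL3 cuts them, and Argonautes of the AGO4 group load them, with a preference for a 5′ adenine, to direct DNA methylation at transposons and repeats. Canonical plant miRNAs are instead mostly 21 nt, are cut from hairpins by DCL1 with 3′ overhangs of 2 nt, and usually carry a 5′ uracil that AGO1 prefers, while a minority of hairpins gives 24-nt miRNAs through DCL3. Which of these routes made a listed sequence was not tested.

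The first set holds those of the 8 most abundant sequences that were not called higher in Ver. It adds the less abundant PC-5p-33117_150, which is near-identical to PC-5p-12608_498 and PC-5p-13433_466. Capitals mark the seed, bases 2 to 8 from the 5′ end, and T stands for U as in the deposited table. PC-5p-12608_498, PC-5p-13433_466 and PC-5p-33117_150 share the seed AGGACTT.
PC-3p-3407_1680: tCACAGCGctgcagcgtattgacc
PC-5p-12608_498: aAGGACTTtacggaaatccaaacc
PC-5p-13433_466: aAGGACTTtacggaaacccaagcc
PC-5p-33117_150: aAGGACTTtacggaaacccaaacc
PC-5p-11023_570: gATTGTTAgtatataactttgatt
PC-3p-26820_202: aGGTCGTAtttggcactgatcaat
PC-3p-40371_112: aAGAACCGtatcttaactgaagct

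The next set holds the 3 sequences called higher in Ver, followed by PC-3p-47019_88 and PC-3p-55049_68, which belong to the same family by shared runs of bases as PC-5p-42888_102.
PC-3p-18308_329: aAATCGGTttttagcttttttagt
PC-3p-25431_217: aTCGAGATgactcatccaaatgga
PC-5p-42888_102: aGGTTCACagctctgcagcgcacc
PC-3p-47019_88: aACCTAGGttcacagctctgcagc
PC-3p-55049_68: aACCTAGGttcacagcgctgcagc

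The last set holds the 3 most abundant sequences that were at 0 reads in every Ver library, and the 4 sequences that share the seed GCGGAAT, the most widely shared seed.
PC-5p-68250_47: aCTTATAAatcgttaacatatgtc
PC-3p-73011_42: aAGAGATTgtatcttatattacgc
PC-5p-53604_71: aTGGAATAagaaatgctctaaccc
PC-3p-95159_26: aGCGGAATataagaaactgtttct
PC-5p-126917_15: aGCGGAATgtaagaaactgtctct
PC-5p-104934_21: aGCGGAATataagaacttgtttct
PC-5p-134520_13: aGCGGAATataagaaattgtctct

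As a group, these sequences were rare and took a smaller share of the reads in Ver than in Nor. Their summed share was 0.143%, 0.221% and 0.147% of all reads in the table in Ver 1 to 3, against 0.328%, 0.262% and 0.327% in Nor 1 to 3. The mean was 0.170% ± 0.0438 in Ver and 0.305% ± 0.0379 in Nor (SD, n = 3 each), a difference of -0.84 on the log2 scale. Every Ver library lay below every Nor library, and the 95% Wilson intervals of the highest Ver library (0.209% to 0.233%) and the lowest Nor library (0.250% to 0.273%) did not overlap. These intervals cover counting error only. Few values under 5 reads are listed, and the study counted fewer valid reads in every Ver library than in every Nor library. How far this lowered the Ver share was not tested.

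The same shares in other lists are given for comparison. Predicted 21-nt sequences took 0.254% ± 0.0138 of the reads in Ver and 0.232% ± 0.0122 in Nor, and predicted sequences of 22 and 23 nt took 0.218% ± 0.0335 in Ver and 0.164% ± 0.0141 in Nor. The 24-nt sequences with a miRBase name took 1.05% ± 0.111 in Ver and 1.15% ± 0.0402 in Nor. The difference between these lists was not tested. In a whole-seed library, fewer cells that make a small RNA and less of it per cell cannot be told apart.

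The number of sequences detected followed the same order. Of the 225 sequences, 68, 79 and 58 had reads in Ver 1 to 3, against 175, 131 and 153 in Nor 1 to 3. The totals of the table overlapped between groups, at 589061 to 771529 reads in Ver and 749852 to 968483 in Nor. Ver 1 held more listed reads than Nor 3 but fewer of these sequences, 68 against 153. Listed totals are not the sequencing depth, and the study counted fewer valid reads in every Ver library than in every Nor library. Depth and group therefore cannot be told apart in these counts. Over all 889 sequences, 521, 513 and 493 had reads in Ver 1 to 3, against 689, 603 and 625 in Nor 1 to 3.

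**Figure D1:**
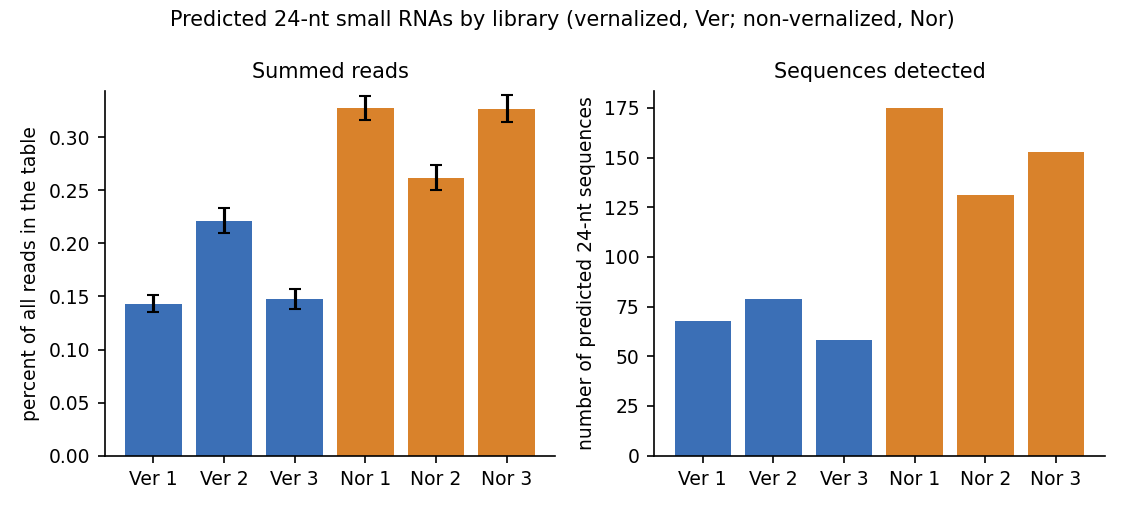
Left, summed reads of the predicted 24-nt sequences as a percent of all reads in the table, by library, with 95% Wilson intervals as error bars. Right, the number of the 225 sequences with reads; the 3 Ver libraries sit below the 3 Nor libraries on both axes, at 58 to 79 against 131 to 175 sequences.

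Of the 222 sequences with reads, 11 (4.95%) were found in Ver libraries only, 110 (49.5%) in Nor libraries only and 101 (45.5%) in both groups. Over all 872 sequences with reads, 91 (10.4%) were found in Ver only and 225 (25.8%) in Nor only, and among 100 predicted 21-nt sequences these counts were 18 and 20. Among 51 predicted sequences of 22 and 23 nt with reads, 6 (11.8%) were found in Ver only and 23 (45.1%) in Nor only, a Nor-only share close to that of the 24-nt sequences. Among 44 sequences of 24 nt with a miRBase name the counts were 3 and 12. The count found in Ver only was 7 without Ver 2 and 21 without Nor 1. The table lists few values under 5 reads, so a 0 may stand for up to 5 reads. In RPM, reads per 1e6 reads of the scaled library total, 5 reads in the library with the smallest scaled total equal 8.79 RPM. At this level 18 sequences were found in Ver only and 87 in Nor only, of 169 found at all. The same counts were 117 in Ver only and 184 in Nor only of 736 over all sequences, and 21 and 18 of 83 for predicted 21-nt sequences.

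Most of the sequences found in 1 group were near the listing limit. Only 2 of the 222 with reads had reads in all 3 Ver libraries and none in Nor, while 29 had reads in all 3 Nor libraries and none in Ver. Over all 872 sequences with reads these counts were 22 and 60. Among the 110 found in Nor only, the median of the highest value was 9.25 reads, and among the 11 found in Ver only it was 6 reads. The 32 sequences found in all 6 libraries were the part of the list whose levels could be followed in every sample.

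The ratio of summed levels was larger outside the 8 most abundant sequences. The 8 most abundant held 43.5% of the reads of the 225 and summed to 802, 1085 and 887 RPM in Ver, against 1202, 1093 and 1237 RPM in Nor. The other 217 summed to 613, 1081 and 665 RPM in Ver, against 1913, 1574 and 2066 RPM in Nor. Their Nor mean was 2.35 times the Ver mean, against 1.27 times for the 8 most abundant. The 217 include all 110 sequences found in Nor only, while the 8 all had reads in both groups. How far the listing limit set this contrast was not tested. Ver 2 was the highest Ver library in both sums.

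A 5′ adenine was the main shared feature that length and name did not fix. It opened 174 of the 225 sequences (77.3%), while T and G each opened 21 and C opened 9. The share was 35.6% among predicted 21-nt sequences, of which 52.5% began with T, and 27.8% among predicted sequences of 22 and 23 nt. Among 24-nt sequences with a miRBase name it was 55.6%. Weighted by reads the share was 64.1%, with 24.2% of reads on sequences that begin with T, chiefly PC-3p-3407_1680.

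**Figure D2:**
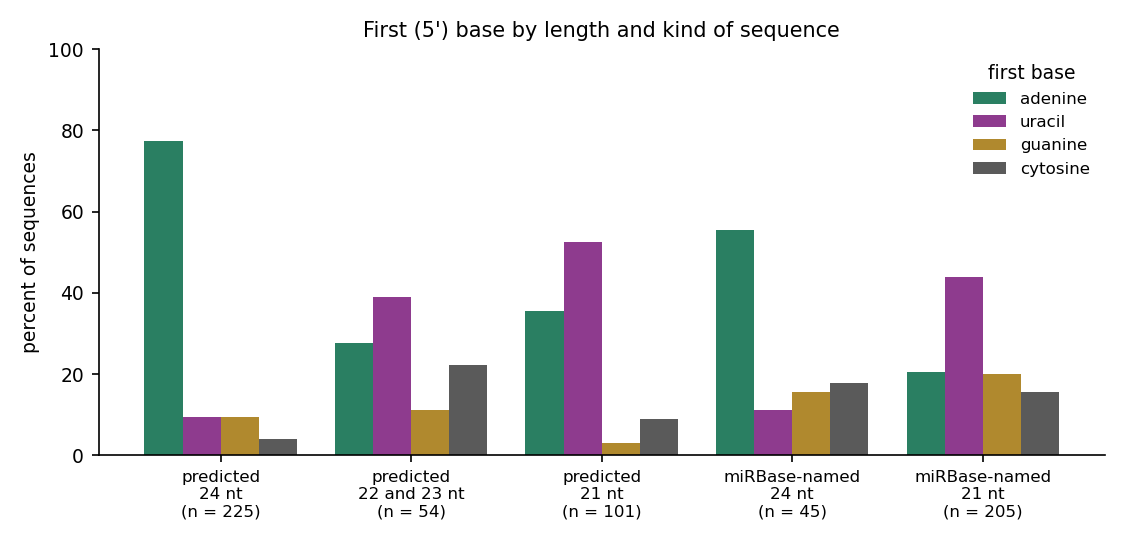
First base of the listed sequences as a percent of the sequences of each list, each sequence counted once. Adenine stands at 77.3% in predicted 24-nt sequences, against 55.6% in 24-nt sequences with a miRBase name and 35.6% in predicted 21-nt sequences.

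Sums were lower in Ver for each first base. Sequences that begin with A summed to 829, 1380 and 970 RPM in Ver, against 1994, 1718 and 2223 RPM in Nor. Those that begin with T summed to 377, 516 and 451 RPM in Ver, against 751, 649 and 710 RPM in Nor, and those that begin with G to 168, 247 and 102 RPM in Ver, against 312, 270 and 334 RPM in Nor. Neither the A, T nor G sums overlapped between groups. The 9 sequences that begin with C overlapped, with 41.0, 23.3 and 29.9 RPM in Ver, against 58.9, 29.8 and 36.4 RPM in Nor. Of the 29 sequences found in all 3 Nor libraries and no Ver library, 26 began with A.

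The 3′ end was also uneven. C was the last base of 133 sequences (59.1%), and 63 (28.0%) ended in CC, against 18.8% of predicted 21-nt sequences. Adenine stood at 52.9% at position 22 and at only 5.78% at position 23. The median GC content was 37.5%.

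**Figure D3:**
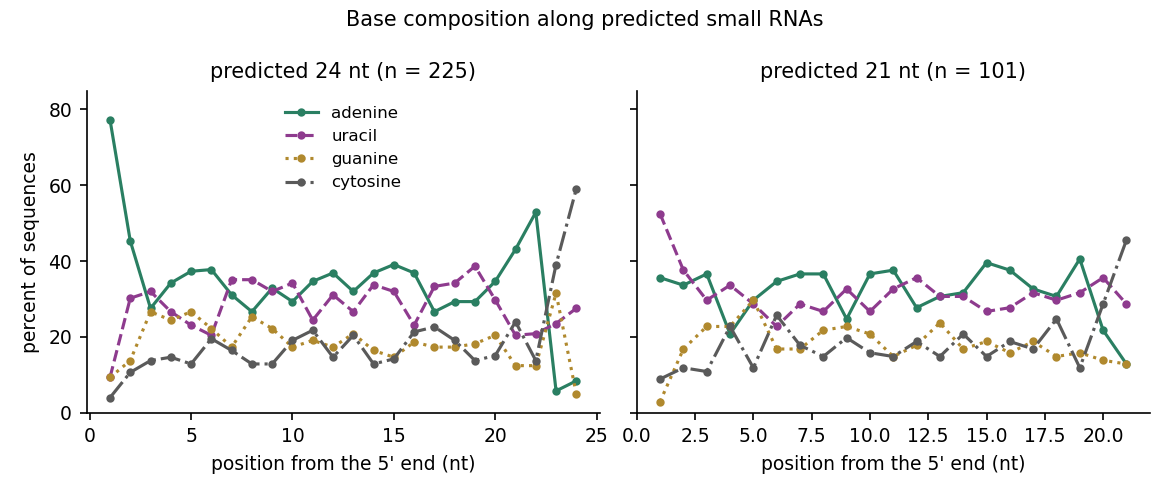
Percent of sequences with each base at each position from the 5′ end, for predicted 24-nt and predicted 21-nt sequences. In the 24-nt panel adenine stands at 77.3% at position 1 and 52.9% at position 22, and cytosine reaches 59.1% at the last position.

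The 225 sequences lay in 248 predicted hairpins over all 10 chromosomes and 2 scaffolds. Chromosome A09 held the most rows, 45, and A02 the fewest of the chromosomes, 15. The hairpins had a median length of 151.5 nt (61 to 234 nt), a median predicted free energy of -79.6 kcal/mol and a median minimal folding free energy index, the energy scaled by length and GC content, of 1.6. Predicted 21-nt sequences had hairpins of 150.5 nt, -77.55 kcal/mol and 1.5 at the median. The 24-nt sequences with a miRBase name had shorter and weaker hairpins at the median, 82 nt, -25.9 kcal/mol and 0.6. Hairpin criteria were part of how PC sequences were listed, so these values partly follow from the listing.

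A single arm was listed for most hairpins. The 5p arm was listed for 111 sequences, the 3p arm for 113 and both for 1. In all, 195 sequences had no partner arm in the table and 30 had one. Among 13 distinct pairs of 2 24-nt arms, 1 had overhangs of 2 nt at both ends, PC-5p-96887_25 with PC-3p-170754_7, and 3 had such an overhang at 1 end or more. The 5p sequences summed to 536, 779 and 503 RPM in Ver, against 1335, 1170 and 1431 RPM in Nor, and the 3p sequences to 879, 1377 and 1050 RPM in Ver, against 1770, 1497 and 1872 RPM in Nor.

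The most abundant sequence came from a hairpin whose other arm is 21 nt long. PC-3p-3407_1680 lies at A09, 11516591 to 11516614, plus strand, in a precursor at 11516471 to 11516650 of the B. rapa v3.0 genome. Its partner PC-5p-4596_1293 is the 5p arm. The precursor is shown with its listed arms in capitals because only the 3p arm was called between groups.
A09 precursor: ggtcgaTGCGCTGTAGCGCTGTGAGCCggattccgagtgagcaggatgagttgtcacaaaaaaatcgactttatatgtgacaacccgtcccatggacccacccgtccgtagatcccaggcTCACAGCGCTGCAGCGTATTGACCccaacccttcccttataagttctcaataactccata

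The 24-nt arm was lower in Ver and the 21-nt arm was not called. PC-3p-3407_1680 had 250.5, 240 and 214.5 reads in Ver, against 580, 365 and 436.5 reads in Nor, which is 366 ± 40.3 RPM in Ver and 551 ± 49.3 RPM in Nor. Its log2 fold change was -0.60 (SE 0.118, adjusted p = 0.00177, edgeR's quasi-likelihood test with Benjamini-Hochberg adjustment), and the groups did not overlap. PC-5p-4596_1293 had 226, 169 and 161 reads in Ver, against 262, 202 and 162 reads in Nor, with a log2 fold change of 0.19 (SE 0.117, adjusted p = 0.183, same edgeR test).

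The ratio of the 3p to the 5p arm does not depend on how libraries are scaled. It was 1.11, 1.42 and 1.33 in Ver 1 to 3, against 2.21, 1.81 and 2.69 in Nor 1 to 3. The groups did not overlap, and the mean log2 ratio differed by -0.79 between Ver and Nor. A two-sided exact permutation test gave p = 0.1, the smallest that 3 against 3 libraries allow. The pair was singled out after its values were seen.

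A second precursor, at A01, 5253019 to 5253231, plus strand, is shown because it holds 24-nt sequences on both arms at very different levels. Capitals mark PC-5p-12608_498 (5253088 to 5253111) and its 3p partner PC-3p-234750_5.
A01 precursor: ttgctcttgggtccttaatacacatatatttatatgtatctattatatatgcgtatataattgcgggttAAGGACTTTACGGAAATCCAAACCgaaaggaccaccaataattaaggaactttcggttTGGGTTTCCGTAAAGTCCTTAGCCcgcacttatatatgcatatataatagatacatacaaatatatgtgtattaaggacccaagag

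PC-5p-12608_498 had 93, 79 and 75 reads in Ver, against 173, 137 and 145 reads in Nor. The partner PC-3p-234750_5 was listed at 0 in every Ver library and at 2.5, 2.5 and 0 reads in Nor 1 to 3, at or under the listing limit. The 5p sequence was also listed in an A10 precursor, from which it differed by C17T (genome base, position from the 5′ end, read base). The 3p arm of that precursor, PC-3p-146892_11, had 0 reads in every Ver library, against 12, 0 and 5 reads in Nor.

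PC-5p-12608_498 belonged to a set of 5 near-identical sequences. It differed from PC-5p-33117_150 by T17C and from PC-5p-13433_466 by T17C and A22G, read from the first named to the second. The 5 sequences together had 186, 231 and 199 RPM in Ver, against 369, 342 and 361 RPM in Nor, and the groups did not overlap. PC-5p-13433_466 had 38, 52 and 26 reads in Ver, against 143, 83 and 85 reads in Nor, and PC-5p-33117_150 had 14, 8 and 12 reads in Ver, against 42, 25 and 18 reads in Nor. Reads may have been divided among such copies, so the split among the members is less certain than their sum.

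By edgeR's quasi-likelihood test with Benjamini-Hochberg adjustment over all sequences, PC-5p-12608_498 had a log2 fold change of -0.53 (SE 0.136, adjusted p = 0.00786) and PC-5p-13433_466 one of -1.03 (SE 0.262, adjusted p = 0.00753). PC-5p-33117_150 had -0.93 (SE 0.377, adjusted p = 0.0556) and was not called. The call of PC-5p-12608_498 was lost without Nor 3 (adjusted p = 0.0501) and by DESeq2 (adjusted p = 0.0958), and that of PC-5p-13433_466 without Nor 1 (adjusted p = 0.0656).

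Copies were common in the list. There were 50 pairs of sequences that differed by at most 2 bases, over 58 sequences, and 16 of these pairs differed by 1 base. Shared runs of 15 bases, direct or through another sequence, joined 68 sequences into 22 families, 9 of them of 3 or more. There were 199 distinct seeds, of which 22 were shared, by 48 sequences in all. The largest family had 8 sequences, among them PC-5p-73841_41, and 3 of the 4 with the seed GCGGAAT. It summed to 7.69, 20.0 and 8.79 RPM in Ver, against 51.5, 73.3 and 76.8 RPM in Nor, with no overlap of the groups.

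Each sequence of that family had few reads on its own. PC-5p-73841_41 had 0 reads in every Ver library, against 11, 10 and 22 reads in Nor, which is at least 2.30-fold lower in Ver when Ver is set to 5 reads per library. PC-3p-95159_26 had 0 reads in every Ver library, against 5, 8 and 6 reads in Nor. PC-5p-134520_13 had 6 reads in Ver 1 and 7 reads in Nor 2 and none elsewhere.

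The test was run over all sequences of the table. Of 405 sequences tested, 61.0% were called at an adjusted p under 0.05, 28.1% higher and 32.8% lower in Ver. The low-count filter passed 39 of the 225 predicted 24-nt sequences, and 16 of these (41.0%) were called, 3 higher and 13 lower in Ver. The share called was below that of the whole table. The Ver and Nor libraries did not overlap for 23 of the 39, against 71.4% of all 405. Of 40 predicted 21-nt sequences tested, 12 were called higher and 5 lower. A sequence could pass the filter through its high group alone, so these counts describe the tested sequences and not the 225. Without Nor 1 the count of called 24-nt sequences was 9.

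**Figure D4:**
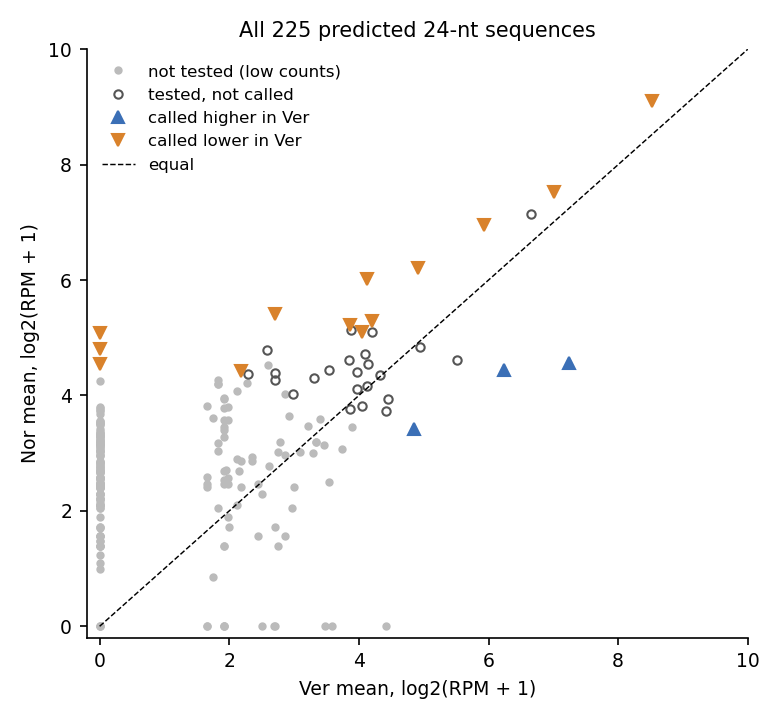
Mean of the 3 Ver libraries (x axis) against the mean of the 3 Nor libraries (y axis) for each of the 225 sequences, as log2(RPM + 1). The 13 sequences called lower in Ver lie above the line of equal means and the 3 called higher lie below it.

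All 3 sequences called higher in Ver begin with A and differ by 1 base from their precursor. PC-3p-18308_329 (A02, 30483853 to 30483876, minus strand, C4T) had 77, 122 and 85 reads in Ver, against 29, 11 and 18 reads in Nor. Its log2 fold change was 2.70 (SE 0.336, adjusted p = 8.90e-05, edgeR). PC-3p-25431_217 (A08, 12880664 to 12880687, plus strand, T4G) had 52, 49 and 43 reads in Ver, against 23, 16 and 13 reads in Nor, a log2 fold change of 1.84 (SE 0.259, adjusted p = 2.05e-04, edgeR). In both, every Ver library lay above every Nor library.

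PC-5p-42888_102 (Scaffold1030, 106056 to 106079, minus strand, G12T) had 16, 25 and 12 reads in Ver, against 5, 9 and 9 reads in Nor. Its log2 fold change was 1.52 (SE 0.549, adjusted p = 0.0372, edgeR), and the groups did not overlap. The call was lost without Ver 2 (adjusted p = 0.112), Nor 1 (0.105), Nor 2 (0.0687) or Nor 3 (0.0530). Among the 13 called lower, 2 differed from every precursor listed for them, PC-3p-40371_112 by T16A and PC-3p-33742_146 by C13T. Over all 225 sequences, 48 differed by 1 base from every precursor listed for them.

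PC-5p-42888_102 was in a family of 4 with PC-3p-47019_88, PC-3p-55049_68 and PC-3p-3407_1680, joined as a chain in which each shares a run of at least 15 bases with the next and not with all others. PC-5p-42888_102 was called higher and PC-3p-3407_1680 lower in Ver. PC-3p-47019_88, which was listed on 2 rows, had 24, 43 and 18 reads in Ver, against 25, 10 and 24 reads in Nor (log2 fold change 0.91, adjusted p = 0.106, edgeR). PC-3p-55049_68, which differs from it by T17G, had 13.5, 13 and 6 reads in Ver, against 33.5, 8 and 5 reads in Nor. The groups overlapped for both. The 48 sequences that differed from their precursors summed to 293, 535 and 380 RPM in Ver, against 440, 406 and 569 RPM in Nor. Much of their Ver sum came from PC-3p-18308_329 and PC-3p-25431_217, with means of 150 and 74.6 RPM in Ver against 22.5 and 20.6 RPM in Nor. The mean was lower in Ver for 37 of the 48 and higher for 11. The other 177 summed to 1122, 1631 and 1173 RPM in Ver, against 2675, 2261 and 2734 RPM in Nor, with a lower Ver mean for 144 and a higher one for 30.

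Among sequences called lower in Ver, PC-3p-40371_112 and PC-3p-26820_202 kept reads in every library. PC-3p-40371_112 (A07, 20901243 to 20901266, plus strand) had 13, 8 and 11 reads in Ver, against 59, 44 and 54 reads in Nor, a log2 fold change of -1.94 (SE 0.290, adjusted p = 3.04e-04, edgeR). PC-3p-26820_202 (A09, 39656150 to 39656173, plus strand) had 15, 24 and 16 reads in Ver, against 76, 52 and 54 reads in Nor, with -1.33 (SE 0.294, adjusted p = 0.00331, edgeR). Neither overlapped between groups.

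Another 3 called sequences were at 0 reads in every Ver library. PC-5p-68250_47 (A01, 5446159 to 5446182) had 30, 23 and 28 reads in Nor, PC-3p-73011_42 (A07, 28711564 to 28711587) had 34, 20 and 15, and PC-5p-53604_71 (A06, 28907209 to 28907232) had 19, 21 and 15. Set against 5 reads per Ver library, they were at least 4.18-fold, 3.43-fold and 2.86-fold lower in Ver. The adjusted p were 2.95e-04, 6.91e-04 and 0.00135 by edgeR's quasi-likelihood test. These sequences passed the low-count filter through Nor alone, so the p-values hold for sequences kept because Nor was high. All 3 begin with A and match their precursors exactly.

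PC-3p-33742_146 and PC-5p-55684_67 had reads in 1 Ver library each. PC-3p-33742_146 had 0, 10 and 0 reads in Ver, against 37, 30 and 35 reads in Nor (log2 fold change -2.93, SE 0.905, adjusted p = 0.0190, edgeR). PC-5p-55684_67 had 0, 0 and 6 reads in Ver, against 20, 17 and 14 reads in Nor (log2 fold change -2.62, SE 0.990, adjusted p = 0.0438, edgeR). The groups did not overlap in either. Single libraries set both folds: the fitted log2 fold change of PC-3p-33742_146 was -7.96 without Ver 2 and -2.22 without Ver 1, and that of PC-5p-55684_67 was -6.98 without Ver 3, -1.87 without Ver 1 and -1.99 without Ver 2. The values with only Ver libraries at 0 left are no bound. The call of PC-3p-33742_146 was lost without Nor 1, Nor 2 or Nor 3 (adjusted p = 0.0801, 0.0896 and 0.0860), and that of PC-5p-55684_67 without Ver 1, Ver 2, Nor 1, Nor 2 or Nor 3 (adjusted p = 0.109 to 0.159).

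One A03 hairpin, at 6745851 to 6745976, minus strand, gave 24-nt sequences from both arms. PC-5p-11023_570 had 87, 78 and 34 reads in Ver, against 142, 98 and 112 reads in Nor, with a log2 fold change of -0.48 (SE 0.251, adjusted p = 0.118, edgeR). PC-3p-36430_130 had 5, 9 and 11 reads in Ver, against 30, 31 and 28 reads in Nor, with -1.45 (SE 0.447, adjusted p = 0.0191, edgeR). Neither arm overlapped between groups. The call of the 3p arm was lost without Ver 1, Nor 1, Nor 2 or Nor 3 (adjusted p = 0.0525, 0.0552, 0.110 and 0.0639), and the difference between the arms was not tested.

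The 23 tested sequences that were not called had adjusted p of 0.0514 to 0.993 by edgeR. Their mean was lower in Ver for 17 and higher for 6, and the groups did not overlap for 7 of them. The 183 sequences with reads that were not tested had at most 33 reads in any library, with a lower Ver mean for 151 and a higher one for 32. The median of their highest value was 9 reads, near the listing limit, and the Ver libraries had fewer valid reads. How far the limit set this split was not tested. PC-3p-73011_42 belongs to a family of 4 that summed to 7.69, 13.3 and 0 RPM in Ver, against 50.1, 42.1 and 35.0 RPM in Nor. A family of 6 that includes PC-3p-47196_88 summed to 34.6, 44.9 and 26.4 RPM in Ver, against 96.2, 50.2 and 68.7 RPM in Nor. Both sums were without overlap between groups, but a member listed at 0 may stand for up to 5 reads. The sums of some other families overlapped. A family of 5 that includes PC-3p-60355_58 summed to 25.6, 16.6 and 12.3 RPM in Ver, against 40.2, 20.3 and 64.7 RPM in Nor. The family of 4 with PC-3p-3407_1680 summed to 390, 534 and 440 RPM in Ver, against 632, 532 and 640 RPM in Nor. In the family of 4 with PC-3p-53201_72, the highest Ver sum was 61.6 RPM and the lowest Nor sum 39.3 RPM.

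The other 2 sequences called lower, PC-3p-35637_135 and PC-3p-41816_106, were outside the naming rule and were named after their values were seen. PC-3p-35637_135 had 9, 15 and 9 reads in Ver, against 41, 21 and 34 reads in Nor (log2 fold change -1.14, adjusted p = 0.0315, edgeR). PC-3p-41816_106 had 7, 13 and 9 reads in Ver, against 41, 21 and 23 reads in Nor (log2 fold change -1.13, adjusted p = 0.0404, edgeR). Both calls were lost without any 1 of Ver 1, Ver 3, Nor 1, Nor 2 or Nor 3 (adjusted p = 0.0607 to 0.204).

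**Figure D5:**
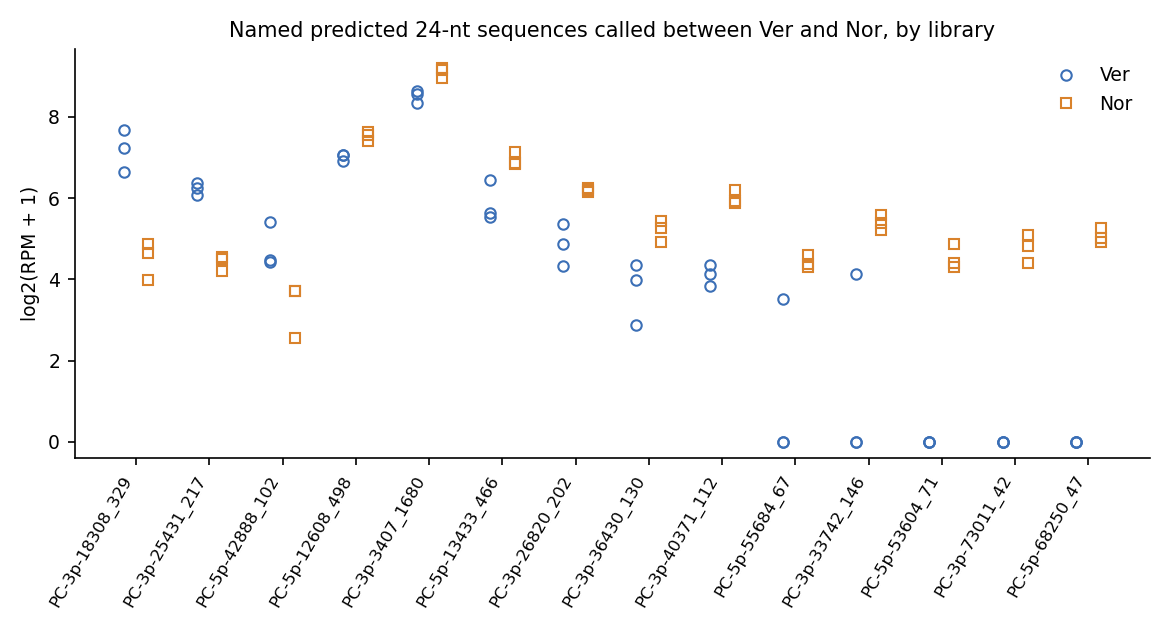
Level of 14 sequences called between Ver and Nor in each library, as log2(RPM + 1), ordered by log2 fold change with Ver as circles and Nor as squares. The first 3 sequences are higher in Ver and the last 3 stand at 0 in every Ver library.

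Sequences seen in Ver alone were few and low. PC-5p-105550_21 had 7, 8 and 6 reads in Ver and PC-3p-111019_19 had 5, 6 and 8, with 0 in every Nor library. Set against 5 reads per Nor library, their Ver means were 1.78-fold and 1.65-fold higher. The Ver values were at or little above that limit, and these folds leave out counting error. PC-5p-146576_11, named after its values were seen, had the highest single value of the 11, with 5, 33 and 0 reads in Ver. In Nor alone, PC-3p-126158_15 had 5, 5 and 20 reads and PC-5p-108064_20 had 10, 5 and 16 reads in Nor 1 to 3. Nor 3 was the highest library for both and 1 or 2 of the others were at the listing limit, so no fold is given.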

How the data were processed

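Small RNA was sequenced in 3 Ver and 3 Nor libraries. Groups and replicate numbers came from the labels. According to the methods and the table legend, the authors removed adapters, low-complexity reads, reads outside 18 to 25 nt, reads of common RNA families, mRNA and repeats, then compared the rest by BLAST with miRBase and the B. rapa v3.0 genome. BLAST version and settings are not given in the sources used here.

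The deposited raw values are estimated counts that, from their values, the authors appear to have divided over rows. The deposited normalized values are a signal, the raw value times 1 factor per library, and were used only in alternatives. The hairpin length, free energy, folding index and GC percent are those deposited by the authors.

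Rows of a sequence were added and values were rounded to whole numbers for the test. All nonzero values of sequences on 2 rows were whole after adding and, on 1 row, 92.3% were whole (tolerance 0.05). Of 664 nonzero values, 132 were exactly 5 reads and 20 were lower, so 5 reads per library was taken as the listing limit. The table totals of 589061 to 968483 reads cover listed sequences only and are not the sequencing depth. At the scaled library totals 5 reads are 4.91 to 8.79 RPM. Wilson intervals (95%) cover counting error only, since reads carry no molecular identifiers.

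Ver was tested against Nor on all sequences by edgeR 4.0.16 (R 4.3.3; quasi-likelihood F test, filterByExpr, TMM factors, group only, Benjamini-Hochberg over 405 sequences, called at an adjusted p under 0.05; biological coefficient of variation 0.146). A positive log2 fold change is higher in Ver. The median log2 fold change of all sequences tested was -0.19. The scripts were checked on simulated data. Precursors were searched for each sequence with at most 1 differing base. Alternatives used limma 3.58.1 and DESeq2 1.42.0, other scalings, filters and thresholds, a replicate block, and each library left out.

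Sequences were named by rule: the 8 most abundant, up to 8 in each direction with the largest called change and no overlap, up to 6 a direction found in all libraries of 1 group only, those on the most rows and up to 3 arm pairs. The rule gave 23 names. The 38 sequences on 2 rows tied for most rows and were ordered by mean RPM. Members, lists and tests were chosen with earlier results of these data known. Replicates were separate culture dishes by the methods. Gene annotation at the coordinates was not used here.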

Additional observations from a re-analysis of the deposited data

How the results depend on the processing

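The share of reads held by predicted 24-nt sequences stayed lower in Ver under every alternative run, with a log2 ratio of -1.07 (without Ver 2) to -0.73 (without Ver 1) when 1 library was left out. Each alternative kept the values listed at 0, so none could show how far the listing limit set this difference. Against the 16 calls reported, 6 were made among the 9 sequences with at least 10 reads in every library, 24 (4 higher, 20 lower) with no filter among 222 tested, where 28.0% of all 872 sequences were called, and 11 by DESeq2. Leaving out 1 library gave 9 (without Nor 1) to 24 (without Ver 2) calls. Deviations of same-numbered libraries correlated at 0.132, -0.0475 and 0.0306, against -0.103 to 0.0684 for differently numbered ones. With 3 replicates these values cannot settle whether replicate numbers pair the libraries. With the replicate block 10 sequences were called, 2 higher and 8 lower. The calls of PC-5p-42888_102, PC-3p-33742_146, PC-5p-55684_67, PC-3p-36430_130, PC-3p-35637_135 and PC-3p-41816_106 were the 6 lost with the block and were also lost with no filter. The 5 lost by DESeq2 were PC-5p-12608_498 and the last 4 of these. The count found in Nor only was 86 to 132 with 1 library left out. The count found in Ver only, 11, became 18 at 8.79 RPM or more, 5 at 10 reads, and 7 (without Ver 2) to 21 (without Nor 1) with 1 library left out. The share of sequences with a 5′ A was 64.1% when weighted by reads. The cause was not tested.

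No tested sequence that the naming rule chose changed direction. PC-3p-18308_329, PC-3p-25431_217, PC-3p-26820_202, PC-3p-3407_1680, PC-3p-40371_112, PC-5p-68250_47, PC-3p-73011_42 and PC-5p-53604_71 kept their calls under each of the 17 or 18 alternatives that tested them. The last 3 of these passed the low-count filter through Nor alone. Fold thresholds were not among these alternatives. PC-3p-3407_1680, at a log2 fold change of -0.60, falls short of an absolute value over 1, as does PC-5p-12608_498 at -0.53. With that cut added to the adjusted p, 14 predicted 24-nt sequences were called. The arm ratio on A09 differed by -0.93 to -0.64 with 1 library left out, an alternative chosen after seeing the data. Most sequences had too few reads to be tested: 183 of 222 with reads did not pass the filter.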
